A study of Rattus norvegicus with 6 samples.

Results

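A set of 53 circRNAs was detected in the spinal cord of every sham rat and in that of no rat with spinal cord injury (SCI). The set was chosen by the detection marks of the arrays themselves: of the 14145 circRNA probes, 12296 were detected on all 3 sham arrays, and 53 of these were detected on none of the 3 SCI arrays. A spot counted as detected when the scanner software had marked it as well above its local background and not as an outlier. These marks are part of the comparison between the groups, so the absence from the SCI arrays is a description of how the circRNAs were selected and was not tested.

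CircRNAs are closed RNA loops that arise when the end of an exon is spliced back to the start of an earlier one. They lack free ends, which makes them resistant to exonucleases, and they are known to be plentiful in nervous tissue, where many are made from genes active in neurons. A contusion bruises the cord, and the days after it are marked by bleeding, cell death, reactive glia and the entry of blood cells.

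The tissue was a segment of spinal cord around the operated level, taken from female Sprague-Dawley rats of 11 weeks. Sham rats had a laminectomy, the removal of the bone over the cord, without contusion, and SCI rats had a laminectomy with a contusion. Both groups received penicillin and were sampled 3 days after surgery, with 3 rats in each group and 1 array for each rat. The cord was not perfused before it was collected, so blood in the tissue was part of each sample, and the segment holds all its cell types. In such bulk tissue fewer cells of a type and less of an RNA per cell cannot be told apart. Total RNA was digested with RNase R, which degrades linear RNA, and hybridized with a single dye, Cy3. Each probe is known here only by a number of its maker, with no circRNA name, host gene or sequence beside it. Host genes, cell type markers and the labelled tissue were therefore not checked here, and 2 of the 53 circRNAs are given by their probe identifiers while the others are given by rank.

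Between 88.8% and 93.9% of the circRNA probes were detected on an array, and no circRNA spot was saturated. The median background-corrected intensity of all circRNAs was 36.0, 50.2 and 39.8 in sham replicates 1 to 3, in this order, and 19.9, 38.9 and 26.6 in SCI replicates 1 to 3. The arrays thus differed in brightness, with sham replicate 2 the brightest and SCI replicate 1 the dimmest. All 6 arrays came from 1 scan, and the 3 sham arrays lay in row 1 of the slide with SCI replicate 3, while SCI replicates 1 and 2 lay in row 2.

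The share of the 12296 sham-detected circRNAs that was detected on no SCI array was 0.431%. Another 200 were detected on 1 SCI array, 456 on 2 and 11587 on all 3. The opposite pattern, detection on all SCI arrays and no sham array, was found for 154 circRNAs. Which array admitted a circRNA differed widely among those detected on a single SCI array. SCI replicate 2 alone detected 156 of these 200 circRNAs, SCI replicate 3 alone 42 and SCI replicate 1 alone 2. On the sham side, 44 circRNAs were detected on 2 sham arrays and no SCI array, and the array that missed them was sham replicate 1 in 33, sham replicate 3 in 10 and sham replicate 2 in 1. No other array kept out as many circRNAs by itself as SCI replicate 2. By the rule over the other 5 arrays the set would hold 209 circRNAs without SCI replicate 2, 95 without SCI replicate 3 and 86 without sham replicate 1.

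The 53 circRNAs lay close to the limit of detection on the sham arrays too. Their background-corrected intensity ran from 5.15 to 33.6 with a median of 7.95 on the array of sham replicate 1, from 7.35 to 74.4 with a median of 17.4 on that of replicate 2, and from 5.12 to 47.1 with a median of 11.7 on that of replicate 3. On the SCI arrays their intensity ran from 0.955 to 4.52 with a median of 2.06 for replicate 1, from 1.19 to 5.05 with a median of 3.60 for replicate 2, and from 0.913 to 5.32 with a median of 3.21 for replicate 3. In each of the 53 the dimmest sham spot was brighter than the brightest SCI spot, but the ratio between these spots was as low as 1.03 and had a median of 1.87. The rule favours such a gap, since it asks for detected sham spots and undetected SCI spots, but the limit differed between spots. By median spot intensity, before background removal and normalization, 48 of the 53 had every sham spot above every SCI spot. The share over all circRNAs was not taken for either measure, so nothing is read from these counts.

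**Figure D1:**
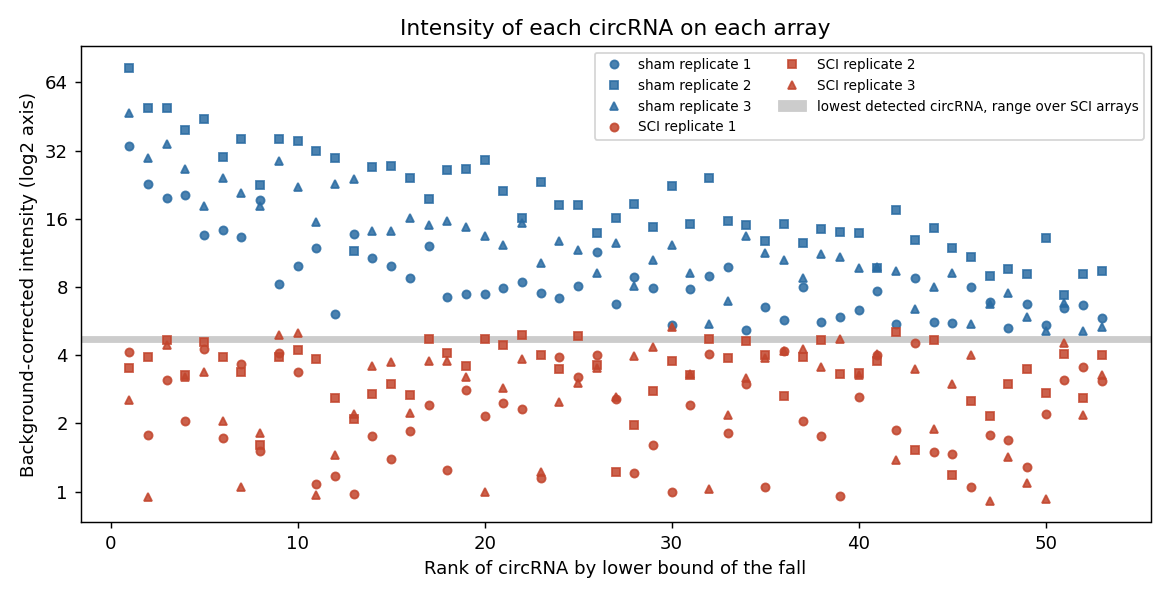
Background-corrected intensity (log2 axis) of each of the 53 circRNAs on each array, ordered by the lower bound of the fall; blue symbols are the sham arrays, red symbols the SCI arrays, and the grey band spans the lowest intensity of any detected circRNA on the 3 SCI arrays (4.55 to 4.79). The sham spots narrow towards the band from left to right, and sham replicate 2 (blue squares) was the highest sham spot for 51 of the 53, as it was for 66.0% of all sham-detected circRNAs before normalization.

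The limit itself was a matter of small differences in intensity. The dimmest sham spot among the 53 stood at 5.12, on the array of sham replicate 3, and the brightest SCI spot at 5.32, on that of SCI replicate 3. Just outside the set, the dimmest detected SCI spot among the 200 circRNAs seen on 1 SCI array stood at 4.74, and 18 of the 200 owed their detection to a spot no brighter than 5.32. The median of the detected SCI spot over the 200 was 8.56. Among the circRNAs seen on 2 sham arrays and no SCI array, the brightest sham spot that missed the mark stood at 5.69.

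Most of the 53 circRNAs were not absent from the SCI arrays by a more lenient mark. Besides the mark for spots well above background, the software marks spots whose signal is positive and significantly different from background. This weaker mark was carried by 46 of the 53 on the array of SCI replicate 1, by 52 on that of SCI replicate 2 and by 45 on that of SCI replicate 3. It was present on all 3 SCI arrays for 38 of the 53, on 2 for 14 and on 1 for the remaining circRNA, ranked 11. No member of the set lacked it on every SCI array. Among the other 405 circRNAs detected on no SCI array, 46.4% carried the weaker mark on all 3 SCI arrays, against 71.7% of the 53. The description as lost from detection thus holds for the stricter mark alone.

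The negative control spots gave a second reference that the rule did not use. Each array carries 77 spots of a single control sequence that should bind no rat RNA. Before background removal their median spot intensity was 17 to 18 on every array, and the brightest of them stood at 20.5, 21 and 21.5 in sham replicates 1 to 3 and at 19, 20 and 21 in SCI replicates 1 to 3. All 53 circRNAs lay above the brightest control spot on each sham array, where their medians were 27, 35 and 31. This is near the share over all circRNAs, 94.2% to 95.8% on the sham arrays, and detection on these arrays was part of the rule. On the SCI arrays their medians were 20, 22 and 22. Above the brightest control spot lay 37 of them on the array of SCI replicate 1, 50 on that of replicate 2 and 35 on that of replicate 3. On all 3 SCI arrays 24 lay above it. Over all circRNAs the share above it was 97.9%, 98.3% and 97.2% on the arrays of SCI replicates 1 to 3. A signal slightly above the control spots was therefore present for many of the 53 in injured cord.

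**Figure D2:**
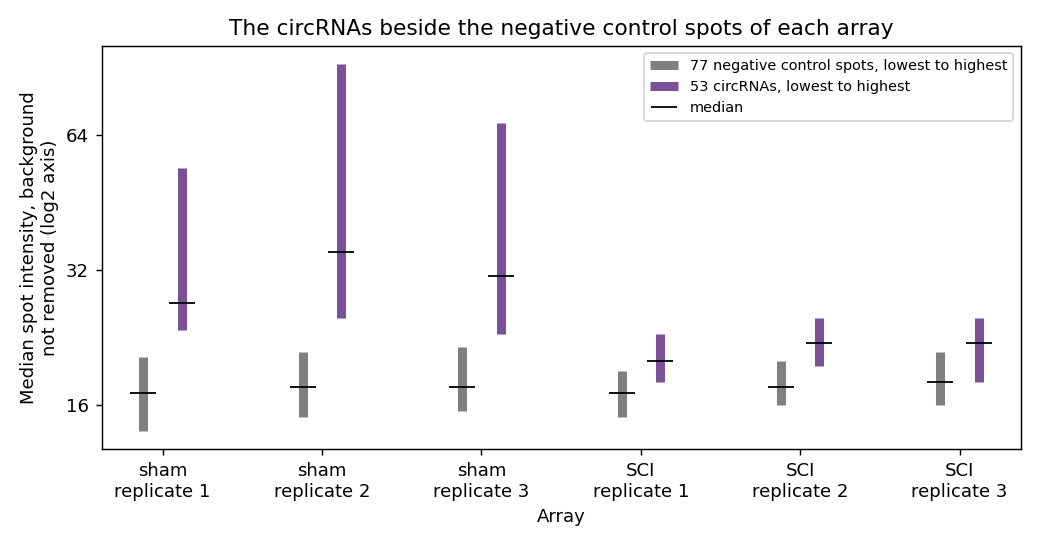
Median spot intensity before background removal (log2 axis) of the 77 negative control spots (grey) and of the 53 circRNAs (purple) on each array; bars run from the lowest to the highest spot and ticks mark medians. On the sham arrays the bars do not overlap, and on the SCI arrays the circRNA bars start within the range of the control spots but their medians, 20 to 22, lie above the control medians of 17 to 18.

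The median local background at the spots of the 53 circRNAs was 14 intensity units on all 6 arrays, the same as over all circRNA spots, and single values ran from 12 to 17. None of the 53 had an outlier mark on any array. The width of the spot as found by the software, a measure of shape that the rule did not use, differed between the groups. It is given here in the software's length unit, which the files do not name. For the 53 circRNAs its median was 45.5, 46.2 and 46.9 on the sham arrays, near the 47.2 to 47.5 of all circRNAs. On the SCI arrays it was 54.4, 57.0 and 54.1, against 46.9 over all circRNAs and 54.4 to 55.9 for spots not detected on those arrays. The spots of the 53 on the SCI arrays were thus drawn as wide as other undetected spots.

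To compare levels between arrays, the intensities were log2-transformed and quantile-normalized, after which the sorted intensities are the same on each array. On this scale the mean sham level of the 53 circRNAs ran from 2.80 to 5.29 with a median of 3.45, against a median of 5.41 for all circRNAs detected on the 3 sham arrays. The brightest of them stood at the percentile 47.4 of these circRNAs, and their median percentile was 8.12. Low level alone did not separate the set from its neighbours, since 5704 other sham-detected circRNAs lay within the same range of sham means. When the sham-detected circRNAs were divided into 10 groups of equal size by sham level, the dimmest group held 31 of the 53, or 2.52% of its 1229 circRNAs. The next groups held 12, 6, 3 and 1, and the 5 brightest groups held 0.

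**Figure D3:**
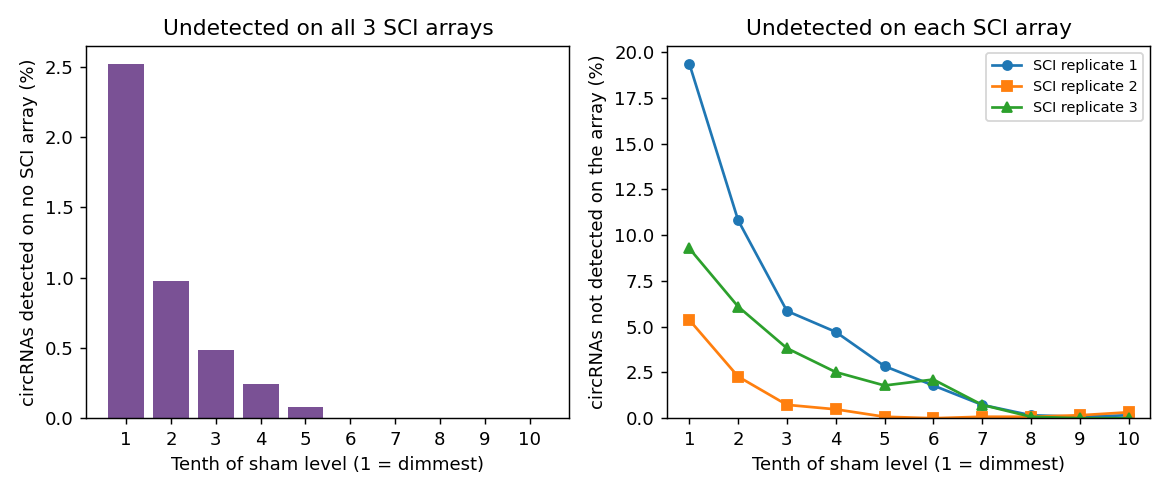
CircRNAs detected on all 3 sham arrays, divided into 10 equal groups by mean normalized sham level (1 is the dimmest). The left panel gives the percent of each group detected on no SCI array, which falls from 2.52 to 0 by group 6, and the right panel the percent not detected on each SCI array, which in the dimmest group was 19.4 for SCI replicate 1, 5.37 for replicate 2 and 9.28 for replicate 3.

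For the circRNAs of the dimmest 10% as a whole the median fitted log2 difference, SCI minus sham, was 0.36, against 0.09 over all 13279 circRNAs tested. That group was picked by its low sham values, and how far this choice raised its difference was not tested. The median over the 53 was -2.40, with values from -4.09 to -1.29, but these fitted differences rest on SCI signals that were not well above background and are not measured sizes.

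The spread between the 3 sham rats was wider in these circRNAs than the median of others of like level. The SD between sham rats ran from 0.05 to 0.91 log2 units with a median of 0.43 (n = 3 rats). Over the 1242 other circRNAs whose sham mean lay between the lower and upper quartile of the 53, the median SD was 0.30, and over all sham-detected circRNAs it was also 0.30. The difference had a direction. After normalization 46 of the 53 were highest on the array of sham replicate 2 and 38 were lowest on that of replicate 1, while over all sham-detected circRNAs sham replicate 2 was highest for 40.4%. Without normalization between arrays sham replicate 2 was highest for 51 of the 53 and for 66.0% of all sham-detected circRNAs. It was highest for 37 of the 53 when scaled to the 75th percentile and for 50 after cyclic loess. On these 2 scales the share over all sham-detected circRNAs was not taken, so nothing is read from those counts. Without sham replicate 1 the median SD was 0.24, and without sham replicate 3 it was 0.50.

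Because no SCI signal of the 53 circRNAs was marked as well above background, the fall is given here only as a lower bound. On each SCI array the higher of the circRNA's own signal and the lowest signal of any detected circRNA was taken, and the mean of these values was subtracted from the mean sham level. On the normalized log2 scale that lowest signal was 2.48, 1.64 and 1.69 on the arrays of SCI replicates 1, 2 and 3, so the array of SCI replicate 1 allowed the least room for a fall. No circRNA of the set exceeded it on that array, while 10 did on that of SCI replicate 2 and 4 on that of SCI replicate 3. The circRNAs were lower in SCI by at least 1.82-fold to at least 10.2-fold, with a median bound of 2.82-fold. The bound reached 2-fold for 47 of the 53, 4-fold for 11 and 8-fold for 1. The size of a bound follows the sham level, so a circRNA with a larger bound is a brighter one and not necessarily one that fell further.

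The largest bound belonged to ASCRPR003574, the brightest of the set in sham cord. Its background-corrected intensity was 33.6, 74.4 and 47.1 in sham replicates 1 to 3 and 4.12, 3.52 and 2.54 in SCI replicates 1 to 3. All SCI values lay far below the sham values and all carried the weaker mark. Its normalized sham level was 5.29 ± 0.29 (SD, n = 3), and on that scale its bound was 10.2-fold. The bound was at least 8.15-fold with any 1 array left out and at least 14.6-fold within slide row 1, where SCI replicate 3 is the only injured cord. Scaled to the 75th percentile it was 5.83-fold, on the median spot intensity before background removal 2.71-fold, and with normexp correction of that intensity 1.66-fold.

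ASCRPR011171 had the second largest bound. Its intensity in the same order was 22.8, 49.3 and 29.5 in sham rats, against 1.77, 3.92 and 0.943 in SCI rats. The SCI value of replicate 3 did not carry the weaker mark. Its sham level was 4.75 ± 0.30 (SD, n = 3) on the normalized log2 scale, and on that scale its bound was 7.03-fold. With any 1 array left out the bound ran from 5.59-fold to 9.33-fold, and it was 3.82-fold when scaled to the 75th percentile, 2.11-fold on the median spot intensity and 1.46-fold with normexp correction of it.

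The circRNAs ranked 3 and 4 were similar in sham cord, and no SCI signal of either was marked as well above background. The circRNA ranked 3 stood at 19.8, 49.1 and 34.1 in sham rats, against 3.12, 4.67 and 4.42 in SCI rats, with a bound of 6.95-fold. The circRNA ranked 4 stood at 20.3, 39.5 and 26.5 in sham rats, against 2.05, 3.28 and 3.22 in SCI rats, with a bound of 6.17-fold. Both carried the weaker mark on every SCI array, and the background-corrected SCI signals of the former lay closer to the limit of detection. Before background removal the median spot intensities in SCI replicates 1 to 3 were 21, 24 and 23 for rank 3. For rank 4 they were 20, 22 and 23, so no difference in what was left in SCI is read.

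Agreement between the sham rats varied from circRNA to circRNA. The circRNA ranked 8 was the steadiest among the 12 with the largest bounds, with intensities of 19.4, 22.6 and 18.2 in sham rats, against 1.52, 1.60 and 1.82 in SCI rats, a sham SD of 0.10 log2 units and a bound of 4.68-fold. The circRNA ranked 12 had the widest spread of the set. It stood at 6.10, 29.6 and 22.8 in sham rats, against 1.17, 2.59 and 1.45 in SCI rats, with a sham SD of 0.91 log2 units and a bound of 3.85-fold, and in sham replicate 1 it was close to the limit. The circRNA ranked 13 was an exception to the order of the sham rats, with its lowest sham value, 11.5, in replicate 2 and its highest, 23.9, in replicate 3.

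At the lower end of the ranking the sham and SCI values came close. The circRNA ranked 51 had the smallest sham SD, 0.05 log2 units, with intensities of 6.49, 7.35 and 6.80 in sham rats, against 3.11, 4.04 and 4.52 in SCI rats. Its bound was 1.90-fold. The circRNA ranked 53, with the smallest bound of 1.82-fold, stood at 5.85, 9.39 and 5.31 in sham rats, against 3.08, 4.0 and 3.26 in SCI rats. For both, every sham value was above every SCI value by a margin of less than 2-fold at the closest pair.

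The bounds depended on the processing and less on any single array. With 1 array left out in turn the median bound ran from 2.35-fold to 3.61-fold. Within slide row 1, which leaves SCI replicate 3 as the only injured cord, it was 3.75-fold. Scaling each array to its 75th percentile lowered the median bound to 1.31-fold, and for 8 of the 53 the bound was not above 0, so that no fall could be bounded. On that scale 37 of the 53 had all sham values above all SCI values, and 1 had a higher fitted mean in SCI. The share over all tested circRNAs with such a gap was not taken on that scale, so nothing is read from the 37. This scaling raised the median difference of all tested circRNAs to 0.40 log2 units. On the median spot intensity before background removal, of which about 14 units are background, the median bound was 1.40-fold, and with normexp correction of it 1.17-fold.

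**Figure D4:**
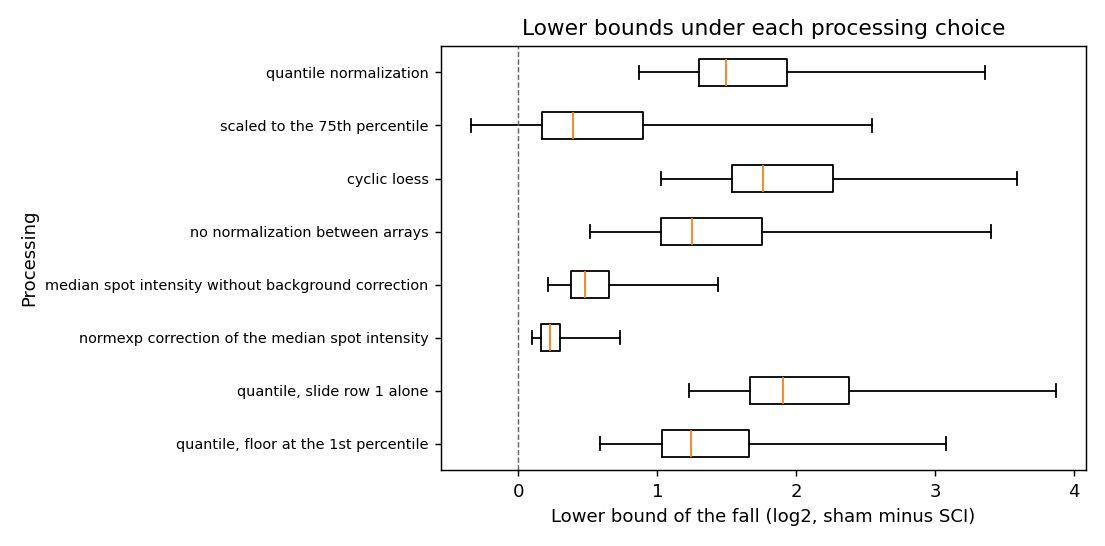
Lower bound of the fall (log2, sham minus SCI) of the 53 circRNAs under each processing choice; boxes span the quartiles, lines mark the median and whiskers run to the lowest and highest bound. The median is 1.49 after quantile normalization and 0.39 after scaling to the 75th percentile, where 8 of the 53 lie at or below the dashed line at 0.

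Each SCI array was also left out of the choice in turn. The circRNAs were then chosen by the same rule from the 3 sham arrays and the other 2 SCI arrays, and read on the array left out, whose values had no part in the choice, while the sham values did. The circRNAs chosen in this way and not detected on the array left out are by the rule always the 53. The share not detected therefore restates the number chosen. The level on that array, given below, is not set by the rule in this way. Still, the 53 are part of each choice, and all 53 lay below every sham value after normalization. With SCI replicate 1 left out, 55 were chosen and 53 of them, or 96.4%, were not detected on its array. With SCI replicate 3 left out, 95 were chosen and 55.8% were not detected. With SCI replicate 2 left out, 209 were chosen and 25.4% were not detected, so that array detected most of them. Among all circRNAs detected on the 3 sham arrays, 4.65%, 2.64% and 0.96% were not detected on the arrays of SCI replicates 1, 3 and 2, and among the dimmest 10% by sham level 19.4%, 9.28% and 5.37%.

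The level on the array left out showed the same order with less contrast between arrays. Of the 55 circRNAs chosen without SCI replicate 1, 54, or 98.2%, lay below every sham value on its array after normalization. The share was 90.5% (86 of 95) for SCI replicate 3 and 82.3% (172 of 209) for SCI replicate 2. In each case the 53 are among those counted. In the dimmest 10%, picked by low sham values, the share lay between 26.9% and 27.3% on the 3 arrays. Among all sham-detected circRNAs it lay between 36.1% and 41.6%. For the chosen circRNAs the median log2 difference from the sham mean was -2.49 on the array of SCI replicate 1. It was -1.81 on that of SCI replicate 3 and -1.50 on that of SCI replicate 2. Many circRNAs chosen in this way were thus low but still detected on the array of SCI replicate 2. That array was also the brightest of the SCI arrays by median intensity, so the rat and the brightness of its array cannot be told apart. These shares were not tested, since circRNAs on 1 array are not replicates and each choice shares the sham arrays.

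**Figure D5:**
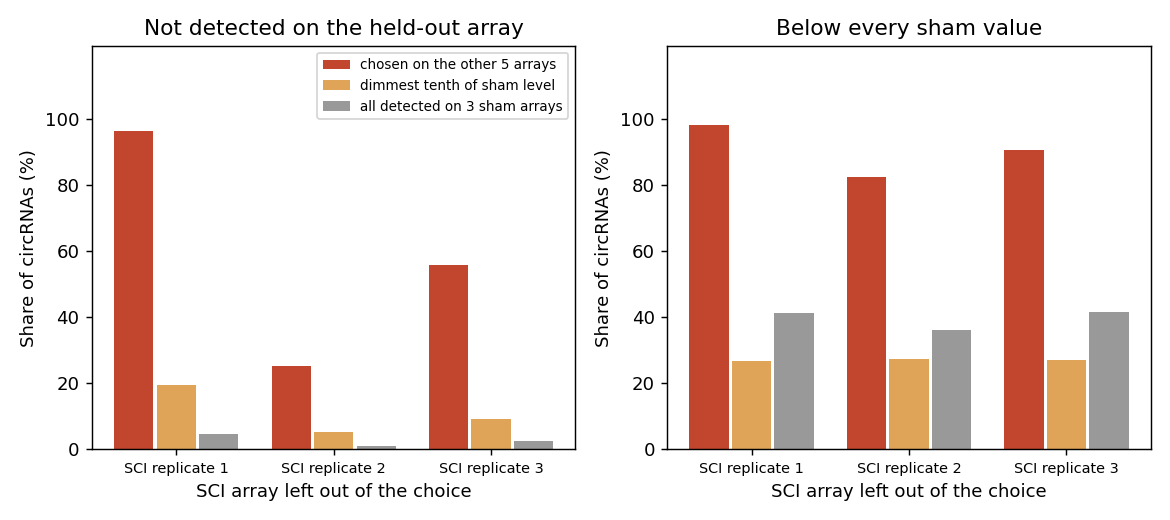
Share (%) of circRNAs not detected on the SCI array left out of the choice (left) and below every sham value on it (right), for the circRNAs chosen on the other 5 arrays (red), the dimmest 10% of sham level (orange) and all circRNAs detected on the 3 sham arrays (grey). The red bars are the tallest in each group, and the share not detected falls from 96.4 for SCI replicate 1 to 25.4 for SCI replicate 2. In the left panel the undetected circRNAs behind each red bar are by the rule the 53. In the right panel the 53 are among those behind each red bar.

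The sham side was read in the same way, and here too the chosen circRNAs detected on the array left out are by the rule the 53. Of the 54 circRNAs chosen without sham replicate 2, 98.1% were detected on its array, near the 98.7% of all circRNAs detected on the other 2 sham arrays. Of the 63 chosen without sham replicate 3, 84.1% were, against 99.0%. Of the 86 chosen without sham replicate 1, 61.6% were detected on its array, against 97.6% of all circRNAs detected on the other 2 sham arrays. These shares restate the numbers chosen, which were largest without sham replicate 1. Its array was also the dimmest of the sham arrays by median intensity, so the rat and the brightness of its array cannot be told apart.

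In the fit over all circRNAs all 53 passed the filter, which detection on the 3 sham arrays ensures. In limma, 53 of 53 were lower in SCI at an adjusted p under 0.05, where 15.6% of all tested circRNAs were, and 53 of 53 were lower by at least 2-fold at an unadjusted p under 0.05, where 18.3% were. All 53 had every sham value above every SCI value on the normalized scale, where this held for 23.2% of the tested circRNAs. The comparison is the one that chose the set, so nothing is read from these counts.

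The spots of the 53 circRNAs lay in every band of the array but not evenly. Over 4 bands of equal width along the array's rows they numbered 10, 12, 14 and 17, and over 4 bands along its columns 9, 18, 17 and 9. Each of these bands held 24.4% to 25.7% of all circRNAs, while the middle column bands held 34.0% and 32.1% of the 53. The unevenness was not tested. Only 3 pairs lay within 2 rows and 2 columns of each other. The 1012 tested circRNA spots that lay within 2 rows and 2 columns of a member had a median fitted difference of 0.10 log2 units, SCI minus sham, and 15.7% of them were lower in SCI at an adjusted p under 0.05, close to the 15.6% of all tested circRNAs. Over 4 equal stretches of the maker's number series the 53 numbered 11, 12, 18 and 12, and 0 stood next to another member of the set. Of the 97 tested circRNAs that stood next to a member in that series, 17.5% were lower in SCI and the median difference was 0.12 log2 units. What the order of the numbers follows is not given in the sources used here.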

How the data were processed

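The authors deposited, for each array, a table made by Feature Extraction (11.0.1.1), with linear intensity values per spot before and after background correction, not normalized between arrays, and other values per spot (marks for outliers and for signal over background, spot width and position). Per the submitters' processing notes, limma was used for later steps, and the paper names quantile normalization, a filter on dim probes, a t-test and an adjustment by Benjamini-Hochberg.

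Here the deposited background-corrected intensity was log2-transformed, outlier spots were left out, and control probes were set aside, and the arrays were quantile-normalized in R (4.3.3) with the limma package (3.58.1). CircRNA probes have 1 spot each. The 13279 circRNAs detected on at least 3 arrays were fitted (SCI minus sham, moderated test of limma, Benjamini-Hochberg over all of them), and the fit was checked on simulated data. The members of the set and the quantities described were chosen with earlier results of these data known. Identifiers are given for the 2 circRNAs with the largest bounds. Gene lists set for host genes were not used, since the files do not name them. With 3 arrays in each group, precision is limited by their number.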

Additional observations from a re-analysis of the deposited data

How the results depend on the processing

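The number of circRNAs detected on every sham array and no SCI array, 53, was 53 with outlier marks ignored, of which 53 were shared. It was 128 when a spot had to exceed the 10th percentile of its array, 48 of them shared, and 1 with the mark for positive and significant spots, with 0 shared. It was 7 when a spot had to exceed every negative control spot, a rule added after seeing the data, with 1 shared. With 1 array left out the number ran from 54 to 209. All 53 members were lower at an adjusted p under 0.05 from limma, where 15.6% of all tested circRNAs were. At the 75th percentile 34 members were, where 13.2% of all tested were. With the median spot intensity 21 members were, where 13.6% were, and with normexp correction of it 7, where 11.4% were. The methods' t-test called 7 of all tested circRNAs lower after adjustment, 2 of them members. It gave an unadjusted p under 0.05 for 52 members. The share over all tested circRNAs at that unadjusted p was not taken, so nothing is read from the 52. In the limma fits that each dropped 1 array, 44 to 53 members were called lower after adjustment, where 6.10% to 22.1% of all tested were. With the slide row as a block, a fit that compares SCI replicate 3 with the sham arrays, the median fitted difference was -2.62. The replicate block, with 19.0% of all tested lower, changed no call of a member and left that median at -2.40. The replicate numbers were not taken to pair the rats: the correlations between same-numbered arrays of their deviations from the group means, over 13258 circRNAs, were 0.06, 0.41 and 0.25, and 5 of the 6 arrays correlated best with the array of their own number.

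That median was -1.22 at the 75th percentile, -0.53 with the median spot intensity and -0.24 with normexp, and ran from -2.56 to -2.10 with 1 array left out. The median log2 bound, 1.49, was 0.39 at the 75th percentile, 0.48 with the median spot intensity, 0.23 with normexp and 1.91 within slide row 1, and ran from 1.23 to 1.85 with 1 array left out. With the floor at the 1st percentile of detected circRNAs it was 1.24. The median sham level, 3.45, was 3.08 at the 75th percentile and 4.92 with the median spot intensity, and ran from 3.25 to 3.69. The median SD between sham rats, 0.43, was 0.64 without normalization and 0.15 with the median spot intensity, and ran from 0.24 to 0.50. The cause was not tested.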
